A study of Homo sapiens with 4 samples.

Results

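The genes described here are 27 genes of cholesterol and fatty acid synthesis, taken by their gene symbol from a deposited count table of 58735 genes. They are the enzymes of the mevalonate and sterol pathways, the proteins that switch these enzymes on and off, the sterol carrier STARD4, and the fatty acid enzymes FASN, ACACA and SCD. All 27 had a row in the table, and all 27 were among the 18442 genes kept after a filter on low counts. RNA-seq was done on U2OS cells, an established human osteosarcoma line, as 2 libraries of cells with a GREM1 knockdown (shGREM1) and 2 libraries of control cells (shControl). The comparison asks which transcripts differ between knockdown and control cells. No treatment, time or second genotype is named in the labels, and they state neither the knockdown construct nor whether a group is a single clone.

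Totals ran from 15968817 to 16353015 counts in shGREM1 and from 15492826 to 15676556 in shControl. GREM1 itself, a secreted antagonist of bone morphogenetic proteins, had 1 and 1 counts in shGREM1 and 2 and 0 in shControl. With exact 95% Poisson intervals of 0.0253 to 5.57 counts for 1 count and an upper limit of 3.69 for 0, which cover counting error only, a knockdown was not detectable at this depth. The differences below are therefore between libraries labelled shGREM1 and shControl and are not tied to GREM1 itself. Of 6 mesenchymal and osteoblast markers, VIM, SPARC, COL1A1, RUNX2 and THY1 stood at 64.8 CPM (counts scaled by library size) or more in each library and COL1A2 at 1.22 CPM or less. COL1A1 and SPARC rose, and the summed level of the 6 was 2752 to 2919 CPM in shGREM1 and 2119 to 2222 CPM in shControl. Adipocyte markers had 9 counts or fewer in any library. Of 5 hepatocyte markers, FGB and APOA2 were at 0 throughout, ALB and AHSG had 5 counts or fewer in any library, and CYP2E1 had 92 and 78 counts in shGREM1 and 89 and 84 in shControl. Of 5 epithelial markers, EPCAM and KRT18 rose, and the summed level of the 5 was 863 to 905 CPM in shGREM1 and 622 to 636 CPM in shControl. Most of that sum was KRT18, with 873 and 804 CPM in shGREM1, against 605 and 613 CPM in shControl. EPCAM stood at 11.3 CPM or less in each library, and KRT5 and CDH1 at 3.48 CPM or less. KRT14 had 17.1 and 43.2 CPM in shGREM1, against 9.07 and 14.3 CPM in shControl, and did not pass. Leukocyte markers had 23 counts or fewer in any library. The part of these marker differences in the results below was not tested.

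Cells make cholesterol from acetyl-CoA through mevalonate, isoprenoids, squalene and lanosterol, and they make fatty acids from malonyl-CoA. Both routes are switched on by the sterol regulatory element binding proteins (SREBPs), which are made in the endoplasmic reticulum membrane and escorted to the Golgi by SCAP. There proteases cut the SREBP and free its transcription factor domain. INSIG proteins hold SCAP back when sterols are plentiful, and INSIG1 is itself a target gene of the SREBPs.

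INSIG1 and LSS were the genes that rose in shGREM1, and 0 of the 27 fell by edgeR, DESeq2 or limma-voom. INSIG1 is the retention protein of the pathway, and LSS is lanosterol synthase, which closes the ring system of the sterols. INSIG1 was 1.76-fold and LSS 1.37-fold higher in shGREM1. Most of the other genes stood slightly higher without passing the test: 22 of the 27 had a log2 fold change above 0, with a median of 0.23, against a median of 0.00491 and 50.6% above 0 over all 18442 genes kept. Rose and fell are used for a Benjamini-Hochberg adjusted p below 0.05 in edgeR's quasi-likelihood test over all kept genes. The 2 risen genes are 7.41% of the 27, beside 3.57% of all kept genes called higher and 4.12% called lower. The 27 genes were chosen with earlier results of these data known, so this and later shares of them are description and no test.

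The upstream sequences of INSIG1, LSS and SREBF2 are shown because the first pair are the genes that rose and the third gives the SREBP-2 precursor and held the only sterol regulatory element core found. They are the 250 bases before the RefSeq start (GRCh38.p14), 5′ to 3′ on the strand of the gene. INSIG1 lies at chr7:155297628-155297877 on the plus strand, LSS at chr21:46228775-46229024 on the minus strand and SREBF2 at chr22:41832855-41833104 on the plus strand. Each window runs past the gene's outermost start in GENCODE 29. Capitals mark matches on either strand to TCACCCCAC (the core of the classic sterol regulatory element), CCAAT (the box bound by NF-Y, ATTGG on the other strand) and CACGTG (an E-box).
INSIG1: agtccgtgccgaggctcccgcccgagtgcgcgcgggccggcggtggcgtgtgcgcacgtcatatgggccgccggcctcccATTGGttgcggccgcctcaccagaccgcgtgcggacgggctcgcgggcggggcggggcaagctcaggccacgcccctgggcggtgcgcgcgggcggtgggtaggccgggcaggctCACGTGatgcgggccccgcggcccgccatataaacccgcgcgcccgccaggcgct
LSS: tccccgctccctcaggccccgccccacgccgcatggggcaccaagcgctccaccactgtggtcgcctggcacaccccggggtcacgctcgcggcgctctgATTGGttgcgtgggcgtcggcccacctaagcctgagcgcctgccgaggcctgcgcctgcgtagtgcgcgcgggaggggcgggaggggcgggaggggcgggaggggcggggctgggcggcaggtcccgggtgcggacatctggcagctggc
SREBF2: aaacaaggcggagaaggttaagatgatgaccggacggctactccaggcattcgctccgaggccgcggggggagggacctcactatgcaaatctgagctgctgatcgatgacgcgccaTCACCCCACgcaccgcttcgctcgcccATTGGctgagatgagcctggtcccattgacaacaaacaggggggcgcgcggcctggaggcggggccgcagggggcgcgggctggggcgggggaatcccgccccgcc

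Of the 27 genes, 23 had a promoter row in the RefSeq table, and 18 of these held CCAAT on at least 1 strand, beside 37% of the 27305 genes in the table. CACGTG was found in INSIG1, SC5D and SCAP (3 of 23), beside 7.73% of genes. The core TCACCCCAC was found in SREBF2 (1 of 23), beside 0.45% of genes, and the relaxed form TCACNCCAC, which includes it, in the same gene, beside 1.09%. These are letter matches in a window and no measure of binding. INSIG1 and LSS, described next, both held CCAAT, as did 16 of the genes that did not pass.

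INSIG1 (ENSG00000186480, chromosome 7, 155297776 to 155310235, plus strand, GRCh38, protein coding) had 1551 and 1510 counts in shGREM1, against 766 and 889 in shControl. Scaled to library size this was 94.3 ± 0.509 CPM in shGREM1 and 53.6 ± 5.64 CPM in shControl (SD, n = 2 each). The shGREM1 libraries were nearly equal to each other and lay well above both shControl libraries. The log2 fold change was 0.81 ± 0.12 (SE; edgeR adjusted p = 0.000636). In a bulk sample, more RNA per cell and more cells that hold the RNA cannot be told apart. Whether libraries that share a label are separate cultures is not stated, so this and the other p-values measure a spread that may be technical.

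INSIG2 (ENSG00000125629, chromosome 2), the other retention protein, had 582 and 740 counts in shGREM1 and 594 and 627 in shControl. The groups overlapped, and the log2 fold change was 0.04 ± 0.14 (SE; edgeR adjusted p = 0.897). The count ratio of INSIG1 to INSIG2 within each library was 2.66 and 2.04 in shGREM1, against 1.29 and 1.42 in shControl. The ratios did not overlap between the groups. The mean log2 ratio was 0.79 higher in shGREM1, with an exact two-sided permutation p = 0.333, the smallest that 2 libraries against 2 allow. This test could therefore not pass at any ratio and decides nothing. As INSIG2 differed little, the ratio largely repeats the INSIG1 difference given above.

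The SREBP genes and SCAP stood at similar levels in both groups. SREBF1, which encodes SREBP-1, had 482 and 434 CPM in shGREM1, against 416 and 428 CPM in shControl (log2 fold change 0.12 ± 0.11, SE; edgeR adjusted p = 0.562). It shares 556 exon bases with RAI1 on the opposite strand, whose mean is 86.4 CPM, and no strand setting is given for the counting. SREBF2 had 501 and 511 CPM in shGREM1, against 460 and 469 CPM in shControl, without overlap but at a log2 difference of 0.12 ± 0.10 (SE; adjusted p = 0.52, edgeR). SCAP had 215 and 227 CPM in shGREM1, against 225 and 200 CPM in shControl, and the groups overlapped. STARD4, which carries sterols through the cytosol, had 131 and 123 CPM in shGREM1, against 118 and 138 CPM in shControl. SREBF2 and STARD4 have antisense partners with means of 11 and 7.92 CPM, which share exon bases with them. The log2 fold change was 0.06 for SCAP and -0.01 for STARD4, so that INSIG1 was the single gene of these 6 to pass. In the plot of single libraries, INSIG1 and LSS are set beside these regulators.

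**Figure D1:**
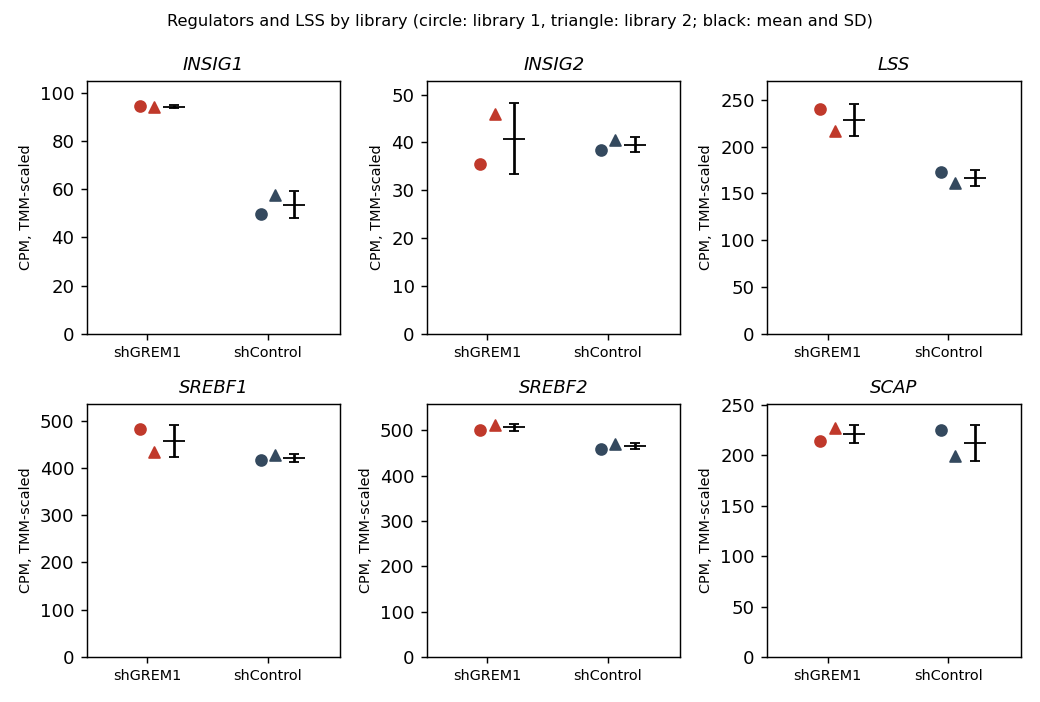
Each panel gives 1 gene's TMM-scaled CPM (vertical axis, from 0) in the shGREM1 libraries (red) and the shControl libraries (dark blue), with circles for library 1, triangles for library 2 and black marks for the mean and SD (n = 2). INSIG1 stands at 94.6 and 93.9 CPM in shGREM1, against 49.6 and 57.6 CPM in shControl, while INSIG2 and SCAP overlap between the groups.

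The mevalonate arm, which builds isoprenoid units from acetyl-CoA, stood higher in shGREM1 by small amounts. Of its 7 genes 0 passed the test, 7 had a log2 fold change above 0, and the median was 0.29, with 0.19 without shGREM1-1 and 0.451 without shGREM1-2. The values lay between 0.07 for IDI1, the isopentenyl diphosphate isomerase, and 0.33 for MVD, the decarboxylase that makes isopentenyl diphosphate. At an unadjusted p below 0.05 in edgeR, 4 of the 7 lay higher, and among the 27 genes 8 did (29.6%), beside 11.1% of all kept genes. At that level 0 of the 27 lay lower. The share of all kept genes that lay lower was not taken, so this 0 has no background to be read against.

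HMGCS1, the HMG-CoA synthase, had 2509 and 1943 counts in shGREM1, against 1788 and 1661 in shControl. FDPS, the farnesyl diphosphate synthase, had 1860 and 1558 counts in shGREM1, against 1349 and 1233 in shControl (log2 fold change 0.33 ± 0.12, SE; edgeR adjusted p = 0.0965). MVD had 1976 and 1636 counts in shGREM1, against 1448 and 1276 in shControl (0.33 ± 0.12, adjusted p = 0.102). In each of these 3 genes both shGREM1 libraries exceeded both shControl libraries, with shGREM1-1 the higher. In the mevalonate kinase MVK and the phosphomevalonate kinase PMVK the groups did not overlap either, with log2 fold changes of 0.33 and 0.28. In PMVK, however, shGREM1-2 was the higher, and shGREM1-1 lay close to shControl-1. It had 13.8 and 16.9 CPM in shGREM1, against 13.3 and 12 CPM in shControl. ACAT2, which condenses acetyl-CoA at the pathway's entry, behaved otherwise: it had 70.6 and 48.6 CPM in shGREM1, against 49 and 49.4 CPM in shControl. The library shGREM1-1 thus stood apart and the other 3 lay together. ACAT2 shares 397 exon bases with TCP1 on the other strand (264 CPM), FDPS shares 693 with RUSC1-AS1 (18.7 CPM) and MVK 306 with MMAB (26.2 CPM), so these values may include reads of the neighbour.

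In the squalene and sterol arm, 1 of 11 genes rose, 0 fell, and the log2 fold changes ran from -0.22 to 0.45 with a median of 0.16. LSS (ENSG00000160285, chromosome 21, 46188141 to 46228824, minus strand, GRCh38, protein coding) had 3944 and 3481 counts in shGREM1, against 2668 and 2482 in shControl. This was 229 ± 17.1 CPM in shGREM1 and 167 ± 8.5 CPM in shControl (SD, n = 2 each). Both shGREM1 libraries lay above both shControl libraries, and the log2 fold change was 0.45 ± 0.11 (SE; edgeR adjusted p = 0.0192). When a shControl library was left out, LSS no longer passed, with an adjusted p of 0.0703 (edgeR) on leaving out shControl-1 and 0.155 on leaving out shControl-2.

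SQLE and FDFT1, which act before LSS, did not pass. SQLE, the squalene epoxidase, had 221 and 179 CPM in shGREM1, against 169 and 173 CPM in shControl (log2 fold change 0.23 ± 0.12, SE; edgeR adjusted p = 0.254). FDFT1, which joins farnesyl units to squalene, had 317 and 264 CPM in shGREM1, against 251 and 276 CPM in shControl. SQLE did not overlap between the groups and FDFT1 did.

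Among the steps after LSS, DHCR7, which completes cholesterol from its last precursor, had the largest positive log2 fold change, at 0.29 ± 0.11 (SE; edgeR adjusted p = 0.131). It had 260 and 218 CPM in shGREM1, against 199 and 191 CPM in shControl. EBP, the sterol isomerase, had 62 and 59 CPM in shGREM1, against 57.1 and 46.3 CPM in shControl, and SC5D, the sterol desaturase, overlapped between the groups. MSMO1, NSDHL and HSD17B7, which act together to remove the methyl groups at carbon 4 of the sterol ring, had log2 fold changes of -0.07, -0.11 and -0.04 and did not pass. MSMO1, the methylsterol oxidase, had 202 and 157 CPM in shGREM1, against 186 and 192 CPM in shControl. NSDHL, the decarboxylating dehydrogenase, had 42.9 and 41.8 CPM in shGREM1, against 46.5 and 45 CPM in shControl. NSDHL and the sterol reductase TM7SF2 were the 2 of the 27 genes with both shGREM1 libraries below both shControl libraries, a pattern found in 26.6% of all kept genes, and neither passed (edgeR adjusted p = 0.628 and 0.535). HSD17B7, the ketoreductase of the 3, overlapped, and its transcribed pseudogene HSD17B7P2 has 10.1 CPM beside 26.6 CPM for the gene, so reads could be split between them. CYP51A1, the lanosterol demethylase, had 14.3 and 17.8 CPM in shGREM1, against 14.7 and 12.6 CPM in shControl. Its exons share 2844 bases with a same-strand annotated gene, AC000120.2, which is listed at 0 counts, so its level is uncertain.

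In the fatty acid arm 0 of 3 genes passed, 1 (ACACA) had an unadjusted p below 0.05 in edgeR, and the median log2 fold change was 0.26. Without shGREM1-1 that median was 0.128. ACACA, the acetyl-CoA carboxylase that makes malonyl-CoA, had 205 and 201 CPM in shGREM1, against 165 and 160 CPM in shControl. These libraries agreed closely within each group and did not overlap, and the log2 fold change of 0.32 ± 0.10 had an adjusted p just above the threshold (SE; edgeR adjusted p = 0.0732). FASN, the fatty acid synthase, had 1901 and 1790 CPM in shGREM1, against 1682 and 1594 CPM in shControl (0.17 ± 0.11, adjusted p = 0.382). SCD, the stearoyl-CoA desaturase, had 1116 and 810 CPM in shGREM1, against 763 and 844 CPM in shControl. SCD thus overlapped, with shGREM1-1 the highest of the 4 libraries. ACACA passed with upper-quartile scaling (edgeR adjusted p = 0.0465), with a mean CPM of at least 5 (0.0474), among protein-coding genes only (0.0471) and with a replicate block (0.0478). Its adjusted p stayed above 0.05 in limma-voom (0.0666), in DESeq2 (0.0701), with relative log expression scaling (edgeR, 0.0741), with total counts only (0.0545), with no count filter (0.0769) and in the fit with no robust estimation (0.0832). The same held without shControl-1 (0.274), shControl-2 (0.319), shGREM1-1 (0.0951) or shGREM1-2 (0.0606).

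**Figure D2:**
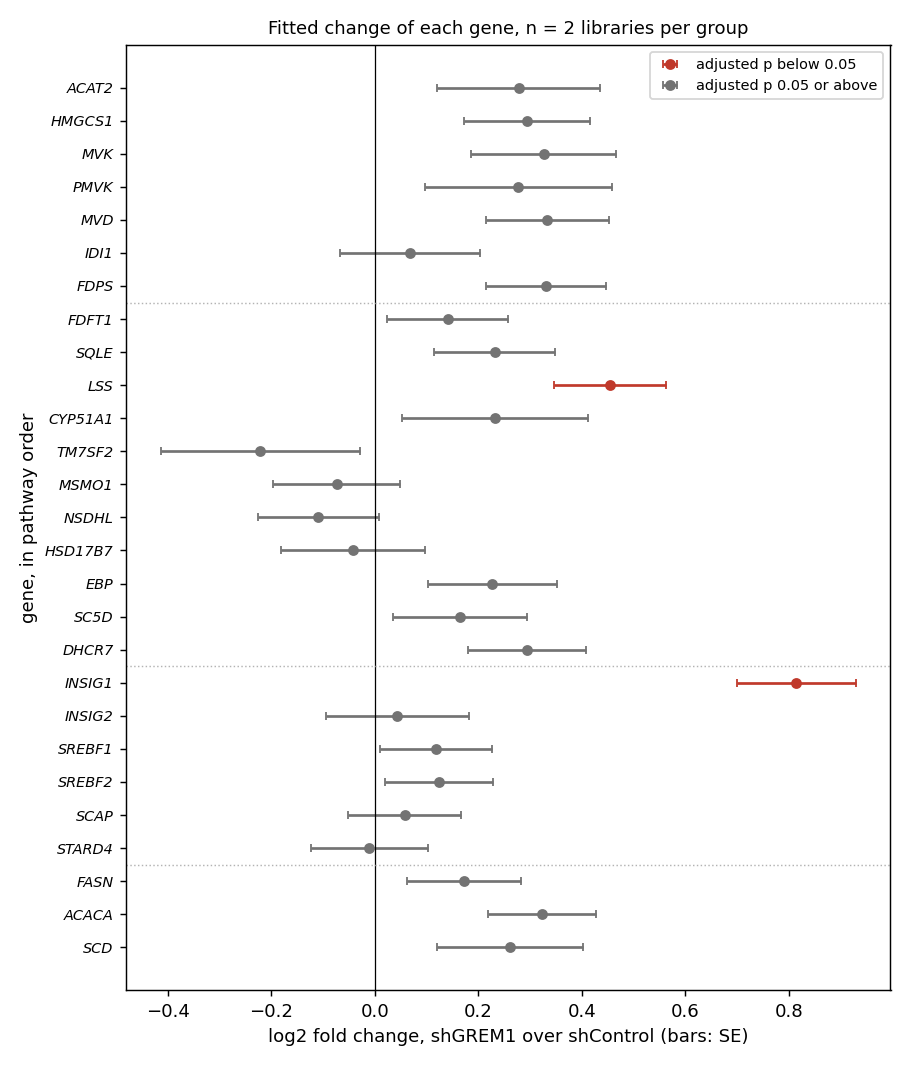
Log2 fold change of shGREM1 over shControl (horizontal axis) with its SE for each gene, in pathway order from top to bottom, with dotted lines between the mevalonate arm, the sterol arm, the regulators with STARD4, and the fatty acid arm. INSIG1 (0.81) and LSS (0.45) are drawn in red for an adjusted p below 0.05, and the other 25 genes, in grey, lie between -0.22 and 0.33.

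Counted over the 27 genes, both shGREM1 libraries lay above both shControl libraries in 14 (51.9%), beside 27% of all kept genes. The 27 genes together took 0.669% and 0.596% of counts in shGREM1, against 0.543% and 0.548% in shControl. Leaving out FASN and SCD, the most abundant, the shares were 0.367% and 0.334% in shGREM1, against 0.302% and 0.305% in shControl. In both sums the shGREM1 libraries were the higher and shGREM1-1 the highest.

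The shGREM1 libraries differed from each other over these genes. Of the 27, 21 were higher in shGREM1-1 than in shGREM1-2, beside 50.3% of all kept genes. The median log2 difference was 0.13, against 0.0025 over all kept genes. Between shControl-1 and shControl-2 the same values were 15 of 27 and 0.05. The median over the 27 genes, relative to the shControl mean on the log2 scale, was 0.26 in shGREM1-1 and 0.11 in shGREM1-2. In shGREM1-1, 20 genes exceeded both shControl libraries, and in shGREM1-2, 17 did. The same count was not taken over all kept genes, so these counts have no background to be read against. The mevalonate arm had medians of 0.45 in shGREM1-1 and 0.19 in shGREM1-2. The sterol arm had 0.26 in shGREM1-1 and 0.00842 in shGREM1-2, so its median stood at the shControl level in that library. INSIG1 stood at nearly the same value in both, 0.82 and 0.81. The share of counts from the mitochondrial genome was 5.38% in shGREM1-1 and 4.24% in shGREM1-2, against 4.48% and 4.35% in shControl, so shGREM1-1 was the highest there too. Its part in these differences was not tested.

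The number of risen genes depended on which library was left out, among the 27 and over all genes tested. Such a fit takes its spread from the group with 2 libraries only. A gained call is therefore no evidence of a change, and a lost call is none of its absence. Without shGREM1-2 the log2 fold change was 0.524 for ACAT2 and 0.474 for SCD, against -0.018 and 0.012 without shGREM1-1. The median log2 fold change of the 27 genes was 0.11 without shGREM1-1 and 0.26 without shGREM1-2. INSIG1 passed in each of these 4 fits, with log2 fold changes from 0.70 without shControl-1 to 0.92 without shControl-2.

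**Figure D3:**
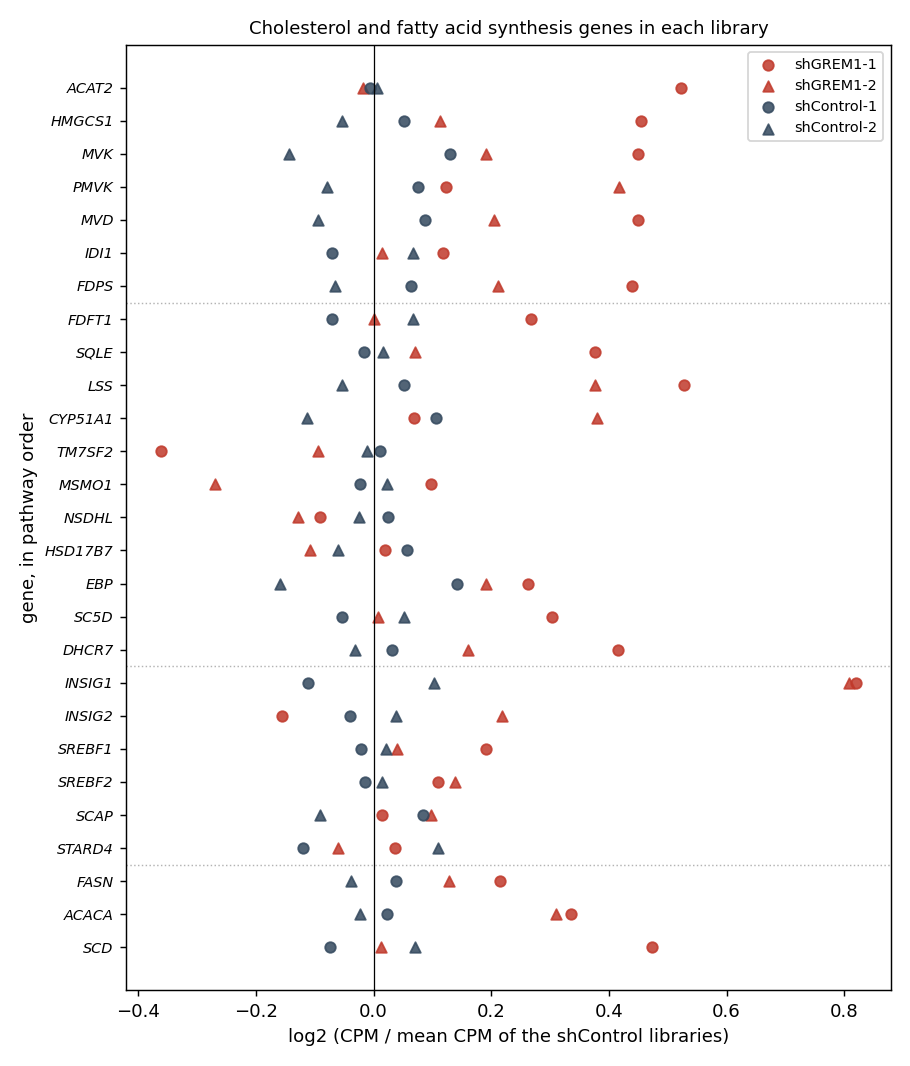
Log2 ratio of each library's CPM to the mean CPM of the shControl libraries (horizontal axis) for the 27 genes in pathway order, with red for shGREM1, dark blue for shControl, circles for library 1 and triangles for library 2. For 21 of the 27 genes the shGREM1-1 circle lies right of the shGREM1-2 triangle (of all kept genes, 50.3% were higher in shGREM1-1). The INSIG1 points of shGREM1 stand farthest right, at 0.82 and 0.81.

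Levels between genes were compared per kilobase of the gene length given in the table (RPKM, the CPM divided by that length). FASN had the highest level, 197 ± 8.38 RPKM in shGREM1 and 175 ± 6.6 RPKM in shControl, followed by SCD with 180 ± 40.3 RPKM in shGREM1 and 150 ± 10.7 RPKM in shControl (SD, n = 2 each). The level of SCD was within its own spread of that of FASN in shGREM1. SREBF2, MSMO1, SREBF1, DHCR7 and FDFT1 came next, between 55.8 and 67 RPKM in shGREM1 and between 46.9 and 65.2 RPKM in shControl. The order among these 5 differed between the groups, with SREBF2 highest in shGREM1 and MSMO1 highest in shControl. INSIG1 stood at 25.8 RPKM in shGREM1 and 14.7 RPKM in shControl, and INSIG2 at 10.3 RPKM in shGREM1 and 10 RPKM in shControl. The lowest was TM7SF2, with 3.06 RPKM in shGREM1 and 3.56 RPKM in shControl. CYP51A1 came next above it, with 4.48 RPKM in shGREM1 and 3.81 RPKM in shControl, but its rank is uncertain because of the exon bases it shares with AC000120.2.

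**Figure D4:**
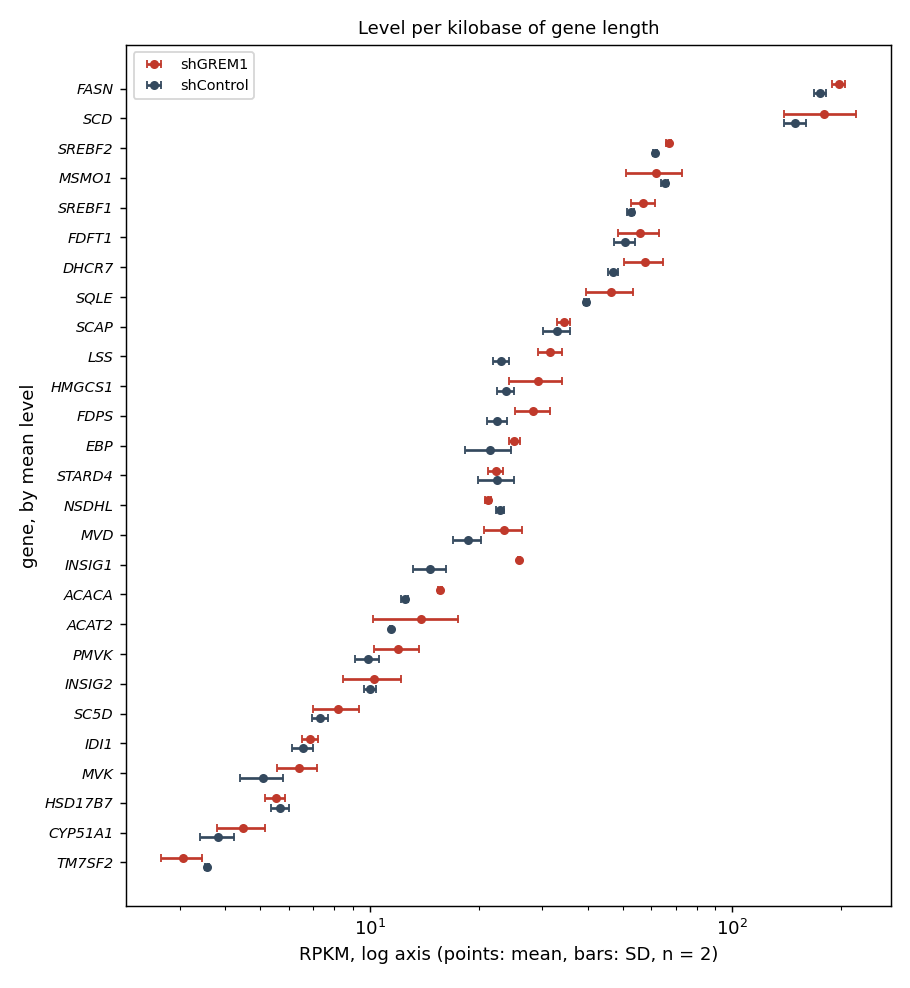
Mean RPKM of each gene (horizontal log axis) with its SD over 2 libraries, with shGREM1 in red above shControl in dark blue, ordered by mean level from top to bottom. Levels run from 197 RPKM in shGREM1 and 175 RPKM in shControl for FASN down to 3.06 RPKM in shGREM1 and 3.56 RPKM in shControl for TM7SF2.

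Of 71 genes in 7 neighbouring lipid lists, 64 were kept, 4 rose and 1 fell, and the median log2 fold change was 0.03. The risen share of 6.25% stands beside 3.57% of all kept genes, and the 1 fallen of 64 beside 4.12% of all kept genes called lower. These lists too were chosen with earlier results of these data known, so their shares are description only. The lists each gave 1 called gene or none. In the mevalonate side branches, ICMT rose and the other 10 genes did not pass. ICMT methylates the ends of prenylated proteins such as RAS. It had 127 and 135 CPM in shGREM1, against 84.3 and 72.1 CPM in shControl, which gave a log2 difference of 0.75 ± 0.11 (SE; adjusted p = 0.00106, edgeR).

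In the list of SREBP processing and sterol-regulated degradation, 1 of 11 genes rose. This was MBTPS1, the site-1 protease that makes the first cut in SREBPs at the Golgi. It had 254 and 271 CPM in shGREM1, against 183 and 199 CPM in shControl, which gave a log2 difference of 0.46 ± 0.11 (SE; adjusted p = 0.0172, edgeR). MBTPS2, the protease of the next cut, had a log2 fold change of 0.11 and did not pass. MBTPS1 failed the test on leaving out shControl-1 or shControl-2, at log2 fold changes of 0.39 and 0.51.

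Among 15 genes of fatty acid supply, elongation and desaturation, HSD17B12 rose, 0 fell, and 12 had a log2 fold change above 0. HSD17B12, the ketoacyl-CoA reductase of fatty acid elongation, had 439 and 425 counts in shGREM1, against 307 and 264 in shControl (0.52 ± 0.15, SE; edgeR adjusted p = 0.0429). The groups did not overlap. It did not pass with DESeq2 (adjusted p = 0.0861) or without robust estimation (edgeR, 0.0535). Nor did HSD17B12 pass without shControl-1 or shControl-2, at log2 fold changes of 0.63 and 0.41.

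On the side of cholesterol export, ABCA1 fell. ABCA1 pumps cholesterol out of the cell to apolipoproteins and is a target gene of the liver X receptors. It had 302 and 414 counts in shGREM1, against 477 and 555 in shControl, which gave a log2 difference of -0.60 ± 0.17 (SE; adjusted p = 0.0404, edgeR). Of the 7 listed receptor and efflux genes 5 were kept. The other 4 did not pass and overlapped between the groups. Their log2 fold changes lay between -0.19 for NR1H3 and -0.05 for NR1H2, and of all kept genes 50.6% lay above 0. ABCA1 did not pass with DESeq2 (adjusted p = 0.053) or without robust estimation (edgeR, 0.0547). Nor did ABCA1 pass without shControl-1, shControl-2 or shGREM1-1, at log2 fold changes of -0.71, -0.49 and -0.38. OSBP, which exchanges sterols at contacts of the endoplasmic reticulum with the Golgi, rose, as 1 of 11 genes of sterol transport and esterification. OSBP had 1464 and 1347 counts in shGREM1, against 988 and 1040 in shControl (0.40 ± 0.11, SE; edgeR adjusted p = 0.0384). It did not pass with DESeq2 (adjusted p = 0.053). Nor did OSBP pass without shControl-1, shControl-2 or shGREM1-1, at log2 fold changes of 0.35, 0.43 and 0.35. In that list 2 of the 11 genes had both shGREM1 libraries above both shControl libraries, beside 27% of all kept genes. In 5 of the 11 both lay below, beside 26.6% of all kept genes. NPC1, which moves cholesterol out of lysosomes, was 1 of the 5 and did not pass, with 54.4 and 57 CPM in shGREM1, against 67.2 and 77.5 CPM in shControl (log2 fold change -0.38 ± 0.12, SE; edgeR adjusted p = 0.0629). Of 10 genes of triglyceride and phospholipid synthesis 9 were kept, and of 6 oxysterol and bile acid enzymes 2 were kept; 0 of these passed in edgeR, and 0 had an unadjusted p below 0.05.

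**Figure D5:**
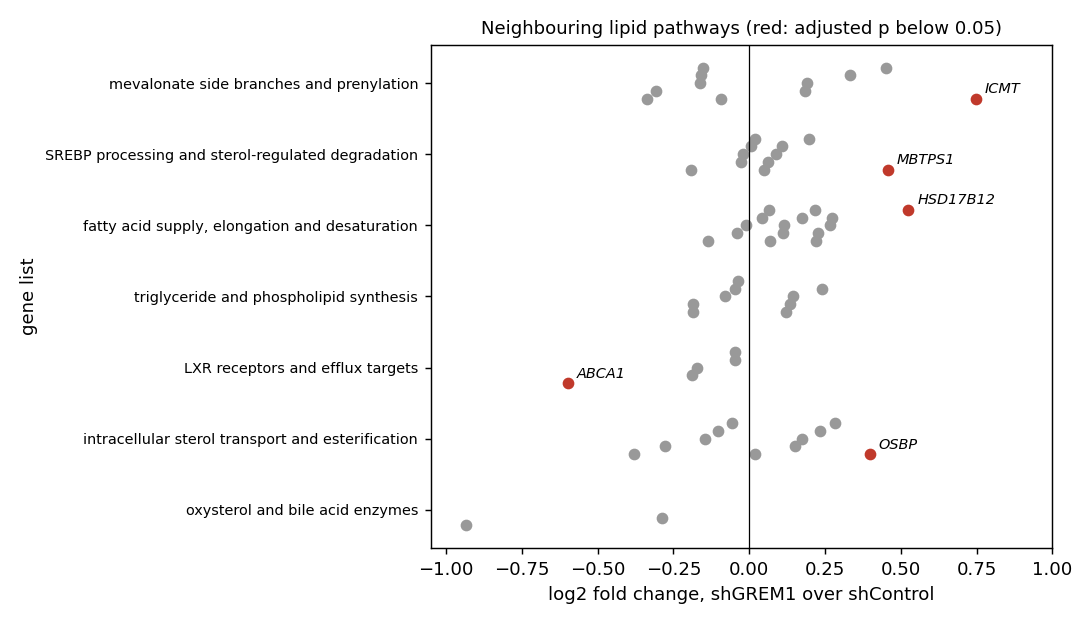
Log2 fold change of shGREM1 over shControl (horizontal axis) for the 64 kept genes of 7 neighbouring lipid lists, 1 point per gene, offset vertically for legibility. Genes with an adjusted p below 0.05 are red and named: ICMT, MBTPS1, HSD17B12 and OSBP to the right, from 0.40 to 0.75, and ABCA1 to the left, at -0.60.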

How the data were processed

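The authors deposited raw counts per gene. Per the submitters' processing notes, HISAT2 2.0.5, StringTie 1.3.3b and DESeq2 were used; which program counted reads, and whether by strand, is not given in the sources used here. Those notes name a mouse build, but the 27 genes and the 5 other called genes match human GENCODE 29 (GRCh38) in position. The column names are abbreviations: NC1 and NC2 were taken for shControl-1 and shControl-2, and SHG11 and SHG12 for shGREM1-1 and shGREM1-2, on no other evidence.

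Counts were fitted in R 4.3.3 with edgeR 4.0.16 (filterByExpr with minimum count 10 and minimum total 15, TMM scaling, robust quasi-likelihood test with the group alone), and p-values were adjusted over all 18442 kept genes. SE was derived from the F statistic. CPM is TMM-scaled, and RPKM divides it by the gene length in the table. The script was tested on simulated counts. Alternatives used DESeq2 1.42.0, limma 3.58.1 (voom), other scalings and filters, a replicate block and leaving out each library. Plots used Python 3.11.15 with matplotlib 3.10.9.

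The genes and neighbouring lists were chosen with earlier results of these data known. Named genes were the 27 genes, up to 4 called genes of each neighbouring list, and the marker lists. MBTPS2 and NPC1 were added outside that rule after their values were seen. Libraries of a group differed by more than sampling noise (chi-square per degree of freedom 10.7 in shGREM1 and 6.19 in shControl).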

Additional observations from a re-analysis of the deposited data

How the results depend on the processing

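The biological coefficient of variation was 11.4% with 2 libraries per group, which limits what could be called at the size of most differences here. INSIG1 passed under all 14 alternatives, with edgeR adjusted p values of 0.00547 or lower in the edgeR fits, and LSS under all but the fits without shControl-1 or shControl-2. The median log2 fold change of the 27 genes ran from 0.113 to 0.263, and 0 genes fell in any fit. With a replicate block 4 genes rose, INSIG1, LSS, MVD and ACACA. Over all 18442 kept genes 1101 rose with the block, against 659 without it. The numbers do not pair the libraries by the labels, and deviations of same-numbered libraries had a correlation of -0.00703. When 1 library was left out, the number of risen genes ran from 1 to 10, the number of called neighbouring genes from 1 to 8, the median of the mevalonate arm from 0.19 to 0.451, that of the fatty acid arm from 0.128 to 0.337, that of the sterol arm from 0.00818 to 0.263 and that of the regulators from 0.0738 to 0.119. The number of called neighbouring genes was 2 with DESeq2 and 3 without robust estimation, against 5. Over all kept genes, 513 rose and 607 fell with DESeq2, and 578 rose and 658 fell without robust estimation, against 659 and 759. The median of the regulators was 0.121 with upper-quartile scaling, 0.108 with total counts only, 0.102 with a mean CPM of at least 5 and 0.105 among protein-coding genes, against 0.0875. The log2 fold change of STARD4 changed sign in these same settings, to 0.022, 0.0089, 0.0031 and 0.0059. Without single libraries, log2 fold changes that crossed 0 ran from -0.018 to 0.524 for ACAT2, -0.0071 to 0.133 for IDI1, -0.269 to 0.0977 for MSMO1, -0.108 to 0.0206 for HSD17B7, -0.155 to 0.218 for INSIG2, -0.0326 to 0.14 for SCAP and -0.128 to 0.103 for STARD4. The causes were not tested.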
